A study of Mus musculus with 6 samples.

Results

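This report concerns the H3K27ac peaks around 4 genes that drive or stop the cell cycle, in C2C12, a line of mouse myoblasts that leave the cycle and fuse into myotubes on differentiation in culture. The genes are Ccnd1 and Myc, which promote entry into the cycle, and Cdkn1a and Cdkn1c, which halt it. Members were the peaks that overlapped a fixed window around each gene by at least 1 bp. The windows, on mouse build mm9, were chr7:152090000-152150000 for Ccnd1, chr15:61790000-61850000 for Myc, chr17:29205000-29250000 for Cdkn1a and chr7:150625000-150665000 for Cdkn1c. They held 22 of 57101 peaks in proliferating myoblasts, 33 of 89717 peaks at 36 h of differentiation and 34 of 97144 peaks at 72 h. Merging overlapping peaks of the 3 lists gave 39 regions in the windows, of 112926 in all. No region lay in the Cdkn1c window.

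H3K27ac, histone H3 acetylated at lysine 27, marks active promoters and enhancers. The series addresses the role of TAp63, a p53-family transcription factor, in myogenesis, and has 1 H3K27ac library and 1 input library for each of proliferation, 36 h and 72 h of differentiation. The labels give C2C12 cells for all samples and name no genetic change, added agent or differentiation medium. Each ChIP library was made from the pooled DNA of 4 ChIP assays with 1.2 µg of antibody each, so the spread between cultures was not measured and no test between stages is given. The values below compare those 3 libraries. The identity of the cells was not checked against muscle markers, because no gene positions on mm9 were used here, and for the same reason no peak is called a promoter or an enhancer of a named gene.

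Cyclin D1, the product of Ccnd1, binds and activates the cyclin-dependent kinases that phosphorylate the retinoblastoma protein and so release cells into S phase. Myc is a transcription factor that is induced by growth signals and raises the transcription of genes for growth and division. Cdkn1a and Cdkn1c encode the inhibitors p21 and p57 of the Cip/Kip family, which bind cyclin and kinase complexes and block them. In skeletal muscle both inhibitors are known for holding differentiating myocytes out of the cycle, where they act redundantly in the mouse. Cdkn1a is also a classical target of p53 and of its relatives. Cdkn1c lies in an imprinted domain and is expressed from the maternal copy.

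Of the 4 genes, only Cdkn1a was matched by symbol in the RefSeq promoter table used here, so it alone is shown by sequence. RefSeq gives it a pair of transcription start sites 2790 bases apart, on the plus strand of chromosome 17. Each window below runs from 250 bases before a start to 50 bases after it, on build GRCm38.p6 and not on the mm9 build of the peaks, so the sequences were not placed within the peaks. In the first, capitals mark a match to the p53-family response element, and in the second they mark the letters GGGCGG, the GC box bound by Sp1.
Cdkn1a, upstream start, GRCm38.p6 chr17:29090729-29091028, plus strand: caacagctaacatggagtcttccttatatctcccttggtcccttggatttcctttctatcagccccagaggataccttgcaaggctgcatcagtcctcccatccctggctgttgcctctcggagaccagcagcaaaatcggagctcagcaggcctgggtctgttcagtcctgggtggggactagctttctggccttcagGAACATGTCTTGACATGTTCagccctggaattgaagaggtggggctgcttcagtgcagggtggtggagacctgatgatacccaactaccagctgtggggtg
Cdkn1a, downstream start, GRCm38.p6 chr17:29093519-29093818, plus strand: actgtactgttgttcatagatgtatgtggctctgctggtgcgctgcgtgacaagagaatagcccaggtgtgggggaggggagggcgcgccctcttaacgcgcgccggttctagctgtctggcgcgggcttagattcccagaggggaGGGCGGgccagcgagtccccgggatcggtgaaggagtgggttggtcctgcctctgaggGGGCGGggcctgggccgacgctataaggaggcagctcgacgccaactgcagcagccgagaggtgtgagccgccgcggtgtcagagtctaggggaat
The upstream window holds the 20-base run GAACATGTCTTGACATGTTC, which differs from the response element, read as 2 adjoining 10-base half-sites, at 1 base. Of 32851 promoter windows in the table, 0.0883% hold such a match with at most 1 mismatch. The element is its own reverse complement, so 1 scan covered both strands. The upstream window has no GC box and 2 CpG dinucleotides. By contrast, the downstream window has 2 GC boxes, 23 CpG dinucleotides and no response element, and its GC content is 64.7%, compared with 54.7% upstream and a median of 52.7% over the table. GGGCGG on either strand occurs in 35.7% of the windows. The E-box CANNTG, the letters bound by MyoD and related factors, occurs once upstream and 2 times downstream, and in 72.3% of all windows. These matches are letters in a sequence and were not tested for binding. The motifs were chosen after the sequences had been seen.

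The 3 loci with peaks behaved differently over the stages. The length under peaks at Cdkn1a was 3.63 kb in proliferating cells, with 17.0 kb after 36 h and 19.9 kb after 72 h. At Ccnd1 proliferating cells had 5.23 kb, those at 36 h had 3.11 kb and those at 72 h had 3.55 kb. For Myc it was 5.09 kb in proliferating cells, 4.99 kb after 36 h and 5.02 kb after 72 h. Cdkn1c had none at any stage. Length under peaks was thus several times greater in differentiating cells at the gene for p21, smaller at the gene for cyclin D1, and nearly equal at Myc.

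**Figure D1:**
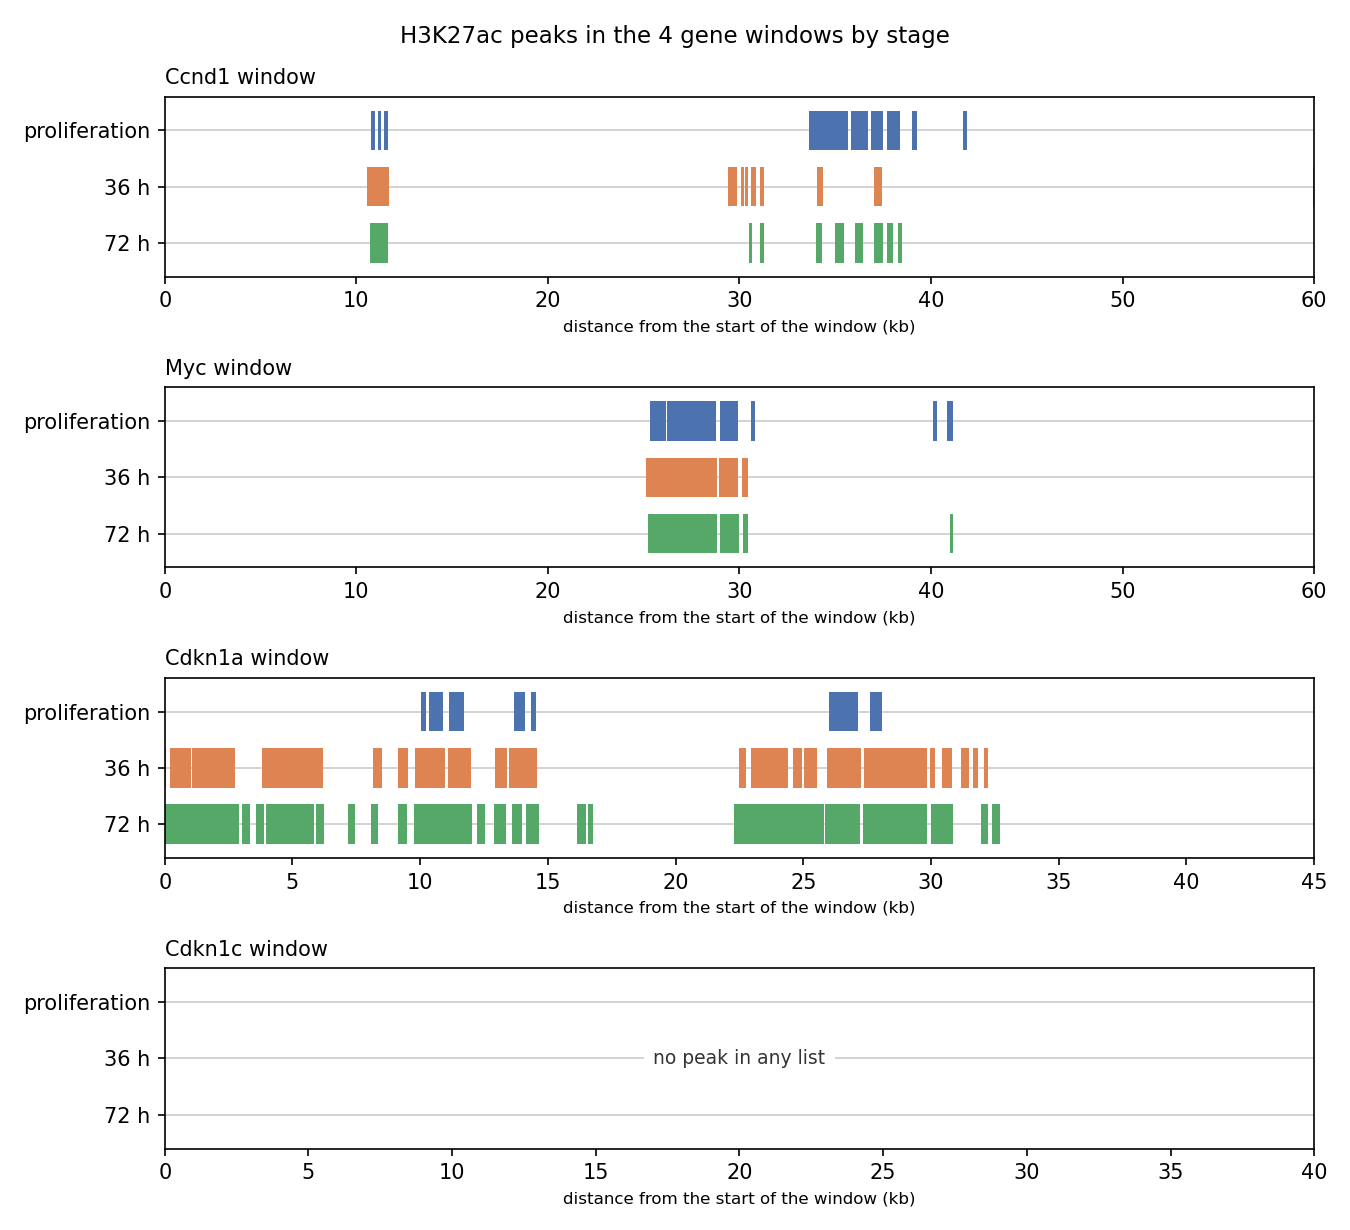
H3K27ac peaks in each gene window, 1 row per stage, drawn to scale against the distance from the start of the window in kb. The Cdkn1a window fills with peaks at 36 h and 72 h, the dense group of proliferation peaks about 34 to 39 kb into the Ccnd1 window is thinner later, the main Myc peaks keep their place, and the Cdkn1c window is empty; the sliver of a 36 h peak at the right edge of the Ccnd1 window is too narrow to see.

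These lengths have to be read against lists that were longer in differentiation. Over the whole lists, peaks covered 1.79 times the proliferation length at 36 h and 2.03 times at 72 h. The Cdkn1a ratios were 4.69 and 5.5 for 36 h and 72 h over proliferation. Among genome bins of 45 kb with at least 1 kb under peaks in some list, 58.0% at 36 h and 64.5% at 72 h had at least 1.5 times the proliferation length, so passing that ratio is common. Over all such bins, 24.9% had a higher ratio than Cdkn1a at 36 h and 26.6% did at 72 h. These shares include bins without a proliferation peak, whose ratios are very large because 1 bp was added to each length. Of 15582 bins, 12525 had peaks in both proliferation and 36 h, and 12758 in both proliferation and 72 h. The ratio was rarer among bins that had as much under peaks in proliferation as the Cdkn1a window. Of 1356 bins whose proliferation coverage was within 20% of that of the Cdkn1a window, 1.33% had a higher ratio at 36 h and 0.442% at 72 h, and the median ratios were 1.25 and 1.35. In absolute length, the Cdkn1a window exceeded 96.1% of all 58575 bins of 45 kb in proliferation, 99.6% at 36 h and 99.8% at 72 h. These bins include empty ones, and 72.9%, 67.0% and 63.9% of them had no peak in the list of that stage.

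Ccnd1 lay on the other side. Its length under peaks at 36 h was 0.594 times that of proliferation, and at 72 h 0.680 times. Bins of 60 kb with at most 1/1.5 times the proliferation length made up 10.6% at 36 h and 5.9% at 72 h. The 36 h ratio passed that bound and the 72 h ratio lay just short of it. Of 1020 bins of like proliferation coverage, 10.8% had a lower ratio at 36 h and 8.04% at 72 h. The 36 h ratio moved to 0.674, short of the bound, when the window was widened by 10 kb on each side. Conversely the 72 h ratio passed the bound, at 0.469 and 0.419, when only peaks with a −log10 q of at least 5 were counted or when the lists were made equal in number. Equal numbers removed peaks from the later lists only, so under that setting a ratio over proliferation could not rise. For Myc the ratios were 0.980 at 36 h and 0.986 at 72 h, and 29.5% and 22.3% of 1049 like bins had lower ones. Between the differentiation stages, the 72 h length was 1.17 times that of 36 h at Cdkn1a, 1.14 times at Ccnd1 and 1.01 times at Myc, with 1.14 times for the whole lists. The Ccnd1 ratio turned to 0.876, and the Myc ratio to 0.984, both with a −log10 q of at least 5 and with lists of equal number, so no direction between 36 h and 72 h is given for those loci.

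**Figure D2:**
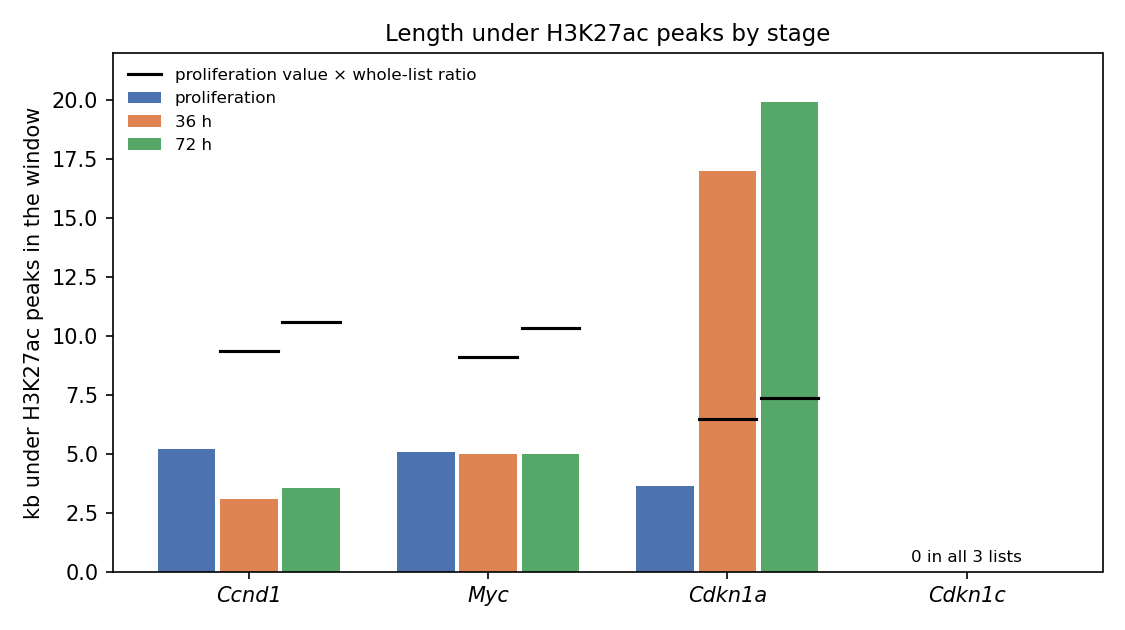
Length under H3K27ac peaks (kb) in each gene window, with 1 bar per stage and 1 library per bar. Black lines give the proliferation length multiplied by the ratio of the whole lists (1.79 at 36 h and 2.03 at 72 h); Cdkn1a stands above its lines, and Ccnd1 and Myc stand below theirs.

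**Figure D3:**
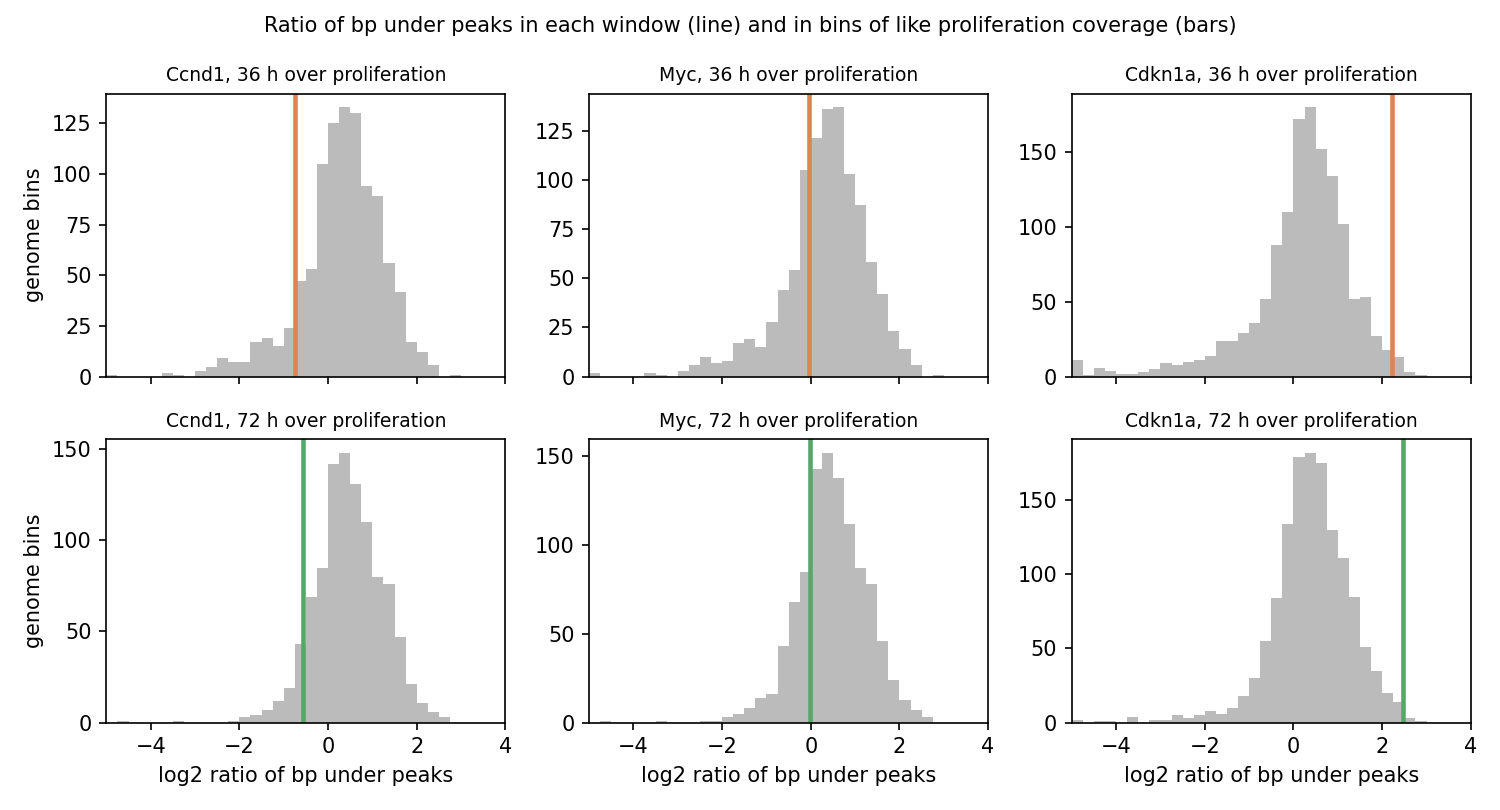
Grey bars count genome bins by the log2 ratio of bp under peaks, for bins whose proliferation coverage was within 20% of the gene window; ratios beyond the axis are drawn in its end bars. The coloured line is the gene window, at 2.23 and 2.46 for Cdkn1a, -0.75 and -0.56 for Ccnd1, and -0.03 and -0.02 for Myc at 36 h and 72 h over proliferation.

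At Ccnd1 the number of peaks was 9 at each stage, but their places and widths differed. The dense part of the locus was a cluster of 5 regions, at most 1 kb apart, at chr7:152123655-152129287. Peaks covered 79.4% of it (4471 bp) in proliferating cells, 12.7% (715 bp) after 36 h and 40.1% (2258 bp) after 72 h. Proliferating cells had 5 peaks there, cells at 36 h had 2 and cells at 72 h had 6, so more of the cluster was covered at 72 h than at 36 h, by narrower peaks than in proliferation. Both ends of the cluster were ends of proliferation peaks, which favours a large share in proliferation.

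The widest Ccnd1 region, chr7:152123655-152125690, was 1 peak of 2036 bp in proliferation. It held 312 bp at 36 h and 778 bp, in 2 peaks, at 72 h. The strongest summit of a region was taken in each list separately, as the one with the highest signal above its local background. Here these summits lay at 152124496 in proliferation, 152124109 at 36 h and 152124190 at 72 h. They had 37 fragments in proliferation (95% exact Poisson interval 26.1 to 51.0), 10 at 36 h (5.19 to 17.5) and 15.5 at 72 h (9.02 to 24.8). These fragment numbers were recovered from the deposited peak statistics and are scaled to the depth of the proliferation library; the intervals cover counting error only. Neither later interval reached that of proliferation. The region chr7:152126882-152127515, which had the most fragments of the locus in proliferation, had 42 in proliferation (30.3 to 56.8), 18.4 at 36 h (11.5 to 27.9) and 24.6 at 72 h (16.2 to 35.8). Here the 36 h interval lay below that of proliferation and the 72 h interval overlapped it. Both sites were picked for a width or a fragment number that they had in proliferation. That choice favours lower values later, and the intervals do not allow for it.

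Not every site at Ccnd1 had less signal later. A separate region at chr7:152100579-152101697, 10.6 kb into the window, was covered over 541 bp by 3 peaks in proliferation, over 1119 bp by 1 peak at 36 h and over 937 bp by 1 peak at 72 h. Its summit had 24 fragments in proliferation (15.4 to 35.7), 34.3 at 36 h (24.6 to 46.5) and 41.9 at 72 h (30.7 to 55.9), with overlapping intervals. It was the strongest Ccnd1 peak by −log10 q at 36 h and 72 h. In proliferation the widest peak of the dense cluster ranked first at 19.0, with chr7:152126882-152127505 of the same cluster nearly equal at 18.9. Between these sites, at chr7:152119413-152121291, 5 narrow peaks covered 1204 bp at 36 h, 2 peaks covered 359 bp at 72 h, and no proliferation peak was called. The strongest of them would have been called in proliferation with a chance of 80.2%, so a difference at these peaks was not detectable at this depth by the limit of 99% used here.

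Some of the stronger Ccnd1 peaks of proliferation had no peak at a later stage. A peak counted as detectable where its recovered signal, scaled by depth and by the median ratio over regions of all 3 lists, would pass the other library's threshold with a chance of 99% or more at a background on that library's 95% quantile. Of 6 Ccnd1 regions with proliferation peaks detectable at 36 h, 2 had no 36 h peak, chr7:152125822-152126720 and chr7:152127682-152128463. Over all regions detectable in the same way the share was 12%. Both had a 72 h peak. The limit at 36 h takes a background of 2.39 times the genome background. In chr7:152127682-152128463 the background was 3.64 times in proliferation and 2.77 times at 72 h, and detectability at those levels was not tested. Of 7 regions detectable at 72 h, 1 had no 72 h peak, chr7:152129018-152129287, compared with 10.6% of all such regions. Regions of 1 locus are neighbours and not independent, and the counts are small.

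The last Ccnd1 region, chr7:152149933-152151241, straddles the window's edge, and its 36 h peak alone reaches inside. The proliferation and 72 h peaks there began 0.041 kb and 0.076 kb outside. Its summit had 37 fragments in proliferating cells, 18.4 after 36 h and 24.6 after 72 h. Of the 13 Ccnd1 regions, 4 were held by all 3 lists, 2 by proliferation only, 2 by proliferation and 72 h, 2 by 36 h and 72 h and 3 by 36 h only. Over all regions these classes made up 25.6%, 6.7%, 3.95%, 22.3% and 15.9%.

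At Myc the main acetylated stretch kept its place and width. A cluster of 4 regions at chr15:61815138-61820800 had 4536 bp under peaks in proliferating cells, 4990 bp after 36 h and 4823 bp after 72 h. Its widest region, chr15:61815138-61818841, was split into 2 peaks in proliferation and was 1 peak of 3704 bp at 36 h and of 3616 bp at 72 h. The strongest summits of the 3 stages lay at 61817369, 61817486 and 61817428. They had 75 fragments in proliferation (59.0 to 94.0), 60.2 at 36 h (47.1 to 75.9) and 65.6 at 72 h (51.3 to 82.6), and all the intervals overlap.

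Within its own list this Myc peak stood above 98.2% of peaks by fold in proliferation, 94.7% at 36 h and 78.3% at 72 h. The fold is the authors' ratio of ChIP to background at the summit, and the local background differed here, at 1.99, 1.37 and 3.69 times the genome background of the library in the order of the stages. A neighbouring region at chr15:61818953-61819950 had 41 fragments in proliferation (29.4 to 55.6), 49.4 at 36 h (37.6 to 63.7) and 42.8 at 72 h (31.5 to 56.9), again overlapping.

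Smaller Myc peaks differed. The region chr15:61820606-61820800 and, 40.1 kb into the window, chr15:61830106-61830313 were called in proliferation only, with 19 and 20 fragments. Their chance of a call was 99.3% and 99.2% at 72 h, and 97.8% and 97.5% at 36 h. They were thus 2 of 4 Myc regions detectable at 72 h, compared with 10.6% of all regions detectable there. Beside the first of them, chr15:61820140-61820465 was held by 36 h and 72 h and not by proliferation. Its summits lay at 61820351 and 61820286, apart from the proliferation summit at 61820748. Merging across gaps of up to 1 kb left no Myc region of proliferation only. The chances of a call at 72 h take a background of 2.77 times the genome background. In the main Myc peak the 72 h background was 3.69 times, and detectability at that level was not tested.

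Cdkn1a had 7 peaks in proliferation and 21 at each of 36 h and 72 h. Of its 20 regions, 4 were held by all 3 lists, 8 by 36 h and 72 h only, 2 by 36 h only and 6 by 72 h only. No region was held by proliferation without both later stages, nor was any at the other loci held by proliferation and 36 h only, a class that made up 1.7% of all regions. Over all regions the share of 36 h and 72 h only was 22.3% and that of 72 h only 23.9%. The peaks formed a left cluster at chr17:29204489-29219646, which begins just outside the window, and a right cluster at chr17:29227300-29237713, with a small 72 h only cluster between them at chr17:29221155-29221750. In the left cluster peaks covered 13.5% of the length in proliferating cells, 63.6% after 36 h and 73.5% after 72 h. The right cluster had 15.2% in proliferation, 73.9% at 36 h and 84.4% at 72 h. The ends of both clusters were ends of 72 h peaks, which favours a large share at 72 h.

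In each cluster, the site with the most fragments already had a peak in proliferating cells. Each cluster also held another region of all 3 lists, given further below. In the left cluster this was chr17:29214741-29217032, whose strongest summits lay at 29215567 in proliferation, 29215641 at 36 h and 29215640 at 72 h. It had 60 fragments in proliferation (45.8 to 77.2), 99.6 at 36 h (82.5 to 119) and 108 at 72 h (89.8 to 130), and both later intervals lay above that of proliferation. Peaks covered 1397 bp, 2104 bp and 2292 bp of it in the order of the stages. Its fold stood above 88.1% of the proliferation list, 99.5% of the 36 h list and 99.9% of the 72 h list.

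In the right cluster the site was chr17:29230857-29232246. Its summit had 55 fragments in proliferation (41.4 to 71.6), 87.0 at 36 h (71.1 to 105) and 99.3 at 72 h (81.5 to 120). The 72 h interval lay above that of proliferation and the 36 h interval overlapped it at its lower end. The width differed less, at 1134 bp in proliferating cells, 1319 bp after 36 h and 1360 bp after 72 h. By fold it stood above 32.7% of the proliferation list, 99.5% of the 36 h list and 99.8% of the 72 h list. The local background in proliferation was 6.92 times the genome background here and equal to it at both later stages, so the difference in fold was larger than that in fragments.

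Next to it, chr17:29232353-29234849 had the largest ratio of the regions held by all 3 lists. It had 448 bp under 1 peak in proliferating cells, 2451 bp after 36 h and 2497 bp after 72 h. The summit had 19 fragments in proliferation (11.4 to 29.7), 50.2 at 36 h (38.3 to 64.6) and 51.9 at 72 h (39.3 to 67.3), both above the proliferation interval. The fourth shared region, chr17:29218496-29219646, had 18 fragments in proliferation (10.7 to 28.4), 17.6 at 36 h (10.9 to 26.9) and 25.5 at 72 h (16.9 to 36.9), which overlap.

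**Figure D4:**
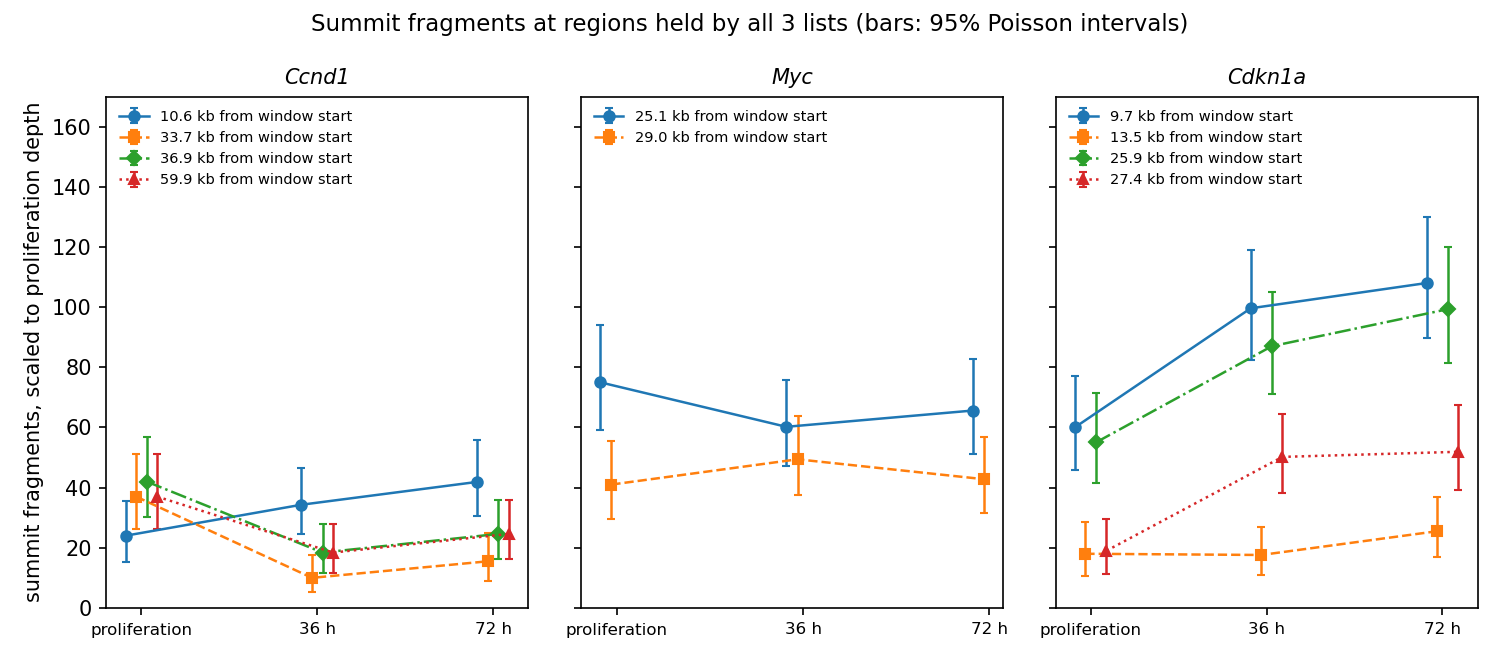
Fragments at the strongest summit of each region held by all 3 lists, scaled to the depth of the proliferation library, with 95% exact Poisson intervals that cover counting error only. Each line is 1 region, named by its distance from the start of the window in kb. By point values, 3 of the 4 Ccnd1 regions are lower at 36 h and 72 h than in proliferation, and the 4 Cdkn1a regions are higher at 72 h. At Ccnd1 only chr7:152123655-152125690 has both later intervals below that of proliferation. The proliferation and 72 h peaks of chr7:152149933-152151241 lay outside the Ccnd1 window. The intervals of chr17:29218496-29219646 at Cdkn1a overlap across stages, as do those of the 2 Myc regions.

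A further 3 wide Cdkn1a regions had no proliferation peak and were detectable there by the limit used here. The widest, chr17:29227300-29230805, was covered by 4 peaks over 2622 bp at 36 h and by 1 peak of 3506 bp at 72 h. Its summit had 27.6 fragments at 36 h (19.0 to 38.8) and 53.7 at 72 h (40.9 to 69.3), with intervals that do not overlap, and its 72 h signal above background was 2.07 times that of 36 h. The region chr17:29204489-29207911 had 26.8 fragments at 36 h and 43.7 at 72 h, and chr17:29208559-29211231 had 25.1 and 33.7. Counted over the locus, 2 of 5 regions with 36 h peaks detectable in proliferation and 3 of 6 with 72 h peaks detectable there had no proliferation peak, compared with 23.4% and 26.3% of all such regions. The limit takes a proliferation background of 3.96 times the genome background. In chr17:29230857-29232246, beside the widest of these regions, the proliferation background was 6.92 times, and detectability at that level was not tested. Only chr17:29217205-29217532, called at 72 h only, was also detectable at and missing from 36 h, as 1 of 8, compared with 6.31% of all such regions. Every 36 h peak of the 3 loci that was detectable at 72 h, in 4 Ccnd1, 2 Myc and 7 Cdkn1a regions, lay in a region with a 72 h peak, and 5.5% of all such regions lacked one.

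Signal above local background at shared regions was also compared with that over all regions. For 36 h over proliferation, 3 of 4 shared Cdkn1a regions had at least 1.5 times the signal, compared with 17.9% of all 30823 shared regions. All 4 of these regions did so for 72 h over proliferation, compared with 25.7% of 33371. The median ratios at Cdkn1a were 1.84 and 2.06, and over all shared regions 1.01 and 1.12. Without subtracting the background they were 1.62 and 1.81 at Cdkn1a. At Ccnd1 the medians were 0.467 over 4 regions for 36 h and 0.620 over 6 regions for 72 h. There 3 of 4 and 4 of 6 regions had at most 1/1.5 times the proliferation signal, compared with 20.1% and 13.4% of all. The 4 and 6 regions include chr7:152149933-152151241, with ratios of 0.52 and 0.671, whose proliferation and 72 h peaks lay outside the window. At Myc no shared region passed either bound, with medians of 1.03 over 2 regions and 0.834 over 3. For 72 h over 36 h, 3 of 12 Cdkn1a regions had at least 1.5 times the signal (23.4% of all), 1 of 6 Ccnd1 regions did and 1 had at most 1/1.5 times (6.72% of all).

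The local background differed between stages, both over the whole lists and at these loci. Over all peaks its median was 1.93 times the genome background in proliferation, 1.06 times at 36 h and 1.15 times at 72 h. Its median over the peaks of the Cdkn1a window was 2.76 times the genome background in proliferation, with a range of 1.6 to 6.92, equal to it at 36 h and 1.02 times it at 72 h. At Ccnd1 it was 1.98 times in proliferation and equal to the genome background at each later stage, and at Myc it was 2.17, 1.44 and 2.27 times in the order of the stages. A higher background demands more fragments for a call. With the 36 h and 72 h fragments thinned to the proliferation depth and their background raised to at least the proliferation median of the window, the length ratios were 4.30 and 4.92 at Cdkn1a and 0.478 and 0.557 at Ccnd1. Those at Myc were 0.980 and 0.986. The setting removed peaks from the later lists only, so none of these ratios could rise under it.

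The Cdkn1c window was without a peak in all 3 lists, and stayed so when it was widened by 10 kb on each side. The nearest peaks to its left ended 143 kb away in proliferating cells and 142 kb away at both later stages. To its right they began 69.3 kb, 69.1 kb and 69.0 kb away in the order of the stages. The gap without peaks was thus 252 kb in proliferation and 251 kb at each later stage. Of 65895 genome bins of 40 kb, 62.9% had no peak in any list, so an empty bin of this size is common. The bins were tiled without regard to genes, and the share among windows around genes was not computed. A call at the genome background needed a summit of 9 fragments in the proliferation and 36 h libraries and 8 in the 72 h library. At a background on the 95% quantile of the list, the level used above for detectable peaks, it needed 18 in proliferation, 15 at 36 h and 14 at 72 h. The background within the Cdkn1c window is not known, since the lists give it only at peaks, and 91.4% of proliferation peaks lay above the genome background. Weaker acetylation would not be listed. The peak on the right, which spanned chr7:150733955-150735073 at 72 h, exceeded by fold 63.1% of the proliferation list, 92.7% of the 36 h list and 90.3% of the 72 h list. It was not assigned to a gene.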

How the data were processed

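H3K27ac ChIP-seq libraries of proliferating C2C12 cells and of cells after 36 h and 72 h of differentiation were used, with 1 library per stage. The submitters' processing notes list BWA, MACS2, deepTools and the mouse build mm9, and the sources used here give neither versions nor caller settings. The deposited lists hold 1 set of peaks per library. The deposited narrowPeak lists give for each peak a fold (a ratio of ChIP to background at the summit), a −log10 p, a −log10 q and a score; the deposited score was not analysed. No file of the 3 input samples was used.

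From each deposited fold and −log10 p, the summit fragments and the local background were solved as MACS2 computes them, and for 100% of peaks this gave back the deposited −log10 p to a relative error under 0.0003. The procedure was tested on simulated data. Taken from the genome background, the ChIP depth relative to proliferation was 1.2 for the 36 h library and 1.1 for the 72 h library. Read totals are not given. Signal means summit fragments minus local background, divided by that relative depth.

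Peaks that overlapped by at least 1 bp formed 1 region, and regions at most 1 kb apart 1 cluster. Genome bins of each window's length were tiled over chromosomes 1 to 19 and X. Calls were a ratio of at least 1.5 or at most 1/1.5. No p-value was computed. The genes and windows were chosen with earlier results of these data known. Regions given with coordinates are the widest, the strongest per list, those that were detectable in and missing from a list, and further ones chosen after their values were seen. Choosing a region by a high value at a stage favours lower values at the other stages, and the Poisson intervals do not allow for it. Gene names and promoter sequences came from RefSeq tables on GRCm38.p6, which were not used to place peaks, so other cell cycle genes were not described. Alternatives were a stricter q, lists of equal number, other window edges, thinning, other merging rules, other scalings and shifted bins. Python 3.11.15, numpy 2.4.6, pandas 2.3.3, scipy 1.17.1 and matplotlib 3.10.9 were used.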

Additional observations from a re-analysis of the deposited data

How the results depend on the processing

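No length or signal ratio past the bound of 1.5 in either direction crossed 1 under any alternative, and 49 of 54 length ratios kept their side of the bound. Ratios nearer to 1 did cross it. Among peaks whose −log10 q reached 5, the length ratios became 0.876 at Ccnd1 for 72 h over 36 h and, at Myc, 1.07 for 36 h over proliferation, 1.06 for 72 h over proliferation and 0.984 for 72 h over 36 h. Lists of equal number gave 0.876 and 0.984 for 72 h over 36 h at Ccnd1 and Myc. Dividing signal ratios also by their median over regions of all 3 lists gave 0.973 at Cdkn1a and 0.897 at Myc for 72 h over 36 h, and 0.994 at Myc for 36 h over proliferation. With 1 library per stage, no library could be left out. No paired analysis was possible because each stage had 1 library and no test was made. The Ccnd1 length ratio of 72 h over proliferation, 0.680, passed the bound at 0.469 with a −log10 q of at least 5, 0.419 with lists of equal number, 0.650 after thinning to the proliferation depth, and 0.557 with the background raised as well, a setting chosen after seeing the data. Equal numbers, thinning and the raised background removed peaks from the later lists only. Under them a length ratio over proliferation could stay or fall but not rise, so a ratio below 1 could not have crossed it. The Ccnd1 ratio of 36 h over proliferation fell short of the bound, at 0.674, in wider windows.

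Peak numbers with a −log10 q of at least 5 were 4 for Ccnd1 at 72 h, 3 in proliferation and 2 at 72 h for Myc, and 4 for Cdkn1a in proliferation. With lists of equal number they were 4 for Ccnd1 and 2 for Myc at 72 h. Wider windows gave Cdkn1a 12 peaks in proliferation.

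Region counts depended most on the merging rule. Across gaps of up to 1 kb, Ccnd1 had 5 regions, 1 of them without a proliferation peak and 1 of proliferation only. Myc had 2 regions, 1 of all 3 stages, 0 without a proliferation peak and 0 of proliferation only. Cdkn1a had 3 regions, 2 of all 3 stages and 1 without a proliferation peak. Regions without a proliferation peak at Ccnd1 numbered 8 when 50% of the shorter peak had to overlap, and 3 with a −log10 q of at least 5 or with lists of equal number. With that q, Myc had 2 regions, 0 without a proliferation peak and 0 of proliferation only, and Cdkn1a had 13 regions, 2 of them of all 3 stages. With lists of equal number, Myc had 0 without a proliferation peak, and Cdkn1a had 13 regions, 9 of them without one. The cause of these shifts was not tested beyond the rule itself.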
